A study of Rattus norvegicus with 9 samples.

Results

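The genes described here are 2 galectins, Lgals1 and Lgals3, and 5 S100 proteins, S100a4, S100a6, S100a10, S100a11 and S100b. They are 7 of the 10411 genes that had a probe set carrying their symbol alone, and each was read by 1 probe set, so no second probe set stood as a check. The genes were selected on the differences between culture and tissue arrays, and between the sets of culture arrays, that these same files show, so their values are given as a description, with no test. RNA came from rat ventral midbrain, the part of the embryonic brain in which midbrain dopaminergic neurons arise. The tissue group, MesE11 (3 arrays), held midbrains dissected at embryonic day 11. The culture group, MesPC (6 arrays), held primary cultures of dissociated cells of such midbrains after 9 days in vitro. Per the labels, embryos of 4 pregnant rats were mixed into 3 groups that were handled apart, so every sample is a pool of animals, and no strain, sex, drug or genetic change is named for either group. The series asks how neuronal primary cultures compare in expression with the embryonic mesencephalon. The labels say that the cells of a group were plated in duplicate and elsewhere count 3 culture arrays, whereas the design text counts 6. It is therefore not stated which cultures were independent, so a p-value reflects no more than how far the arrays at hand spread, which may be technical. In such bulk samples, fewer cells of a type and less RNA per cell cannot be told apart.

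Galectins are small lectins that bind beta-galactosides on the glycans of cell surface and matrix proteins. They are made in the cytosol and leave the cell without a signal peptide. S100 proteins are small EF-hand proteins that mostly pair into dimers, open a binding face when calcium is bound, and dock onto target proteins such as annexins. In the nervous system, S100b is a classical product of astrocytes and Schwann cells, galectin 1 is made by astrocytes, some neurons and connective tissue cells, and galectin 3 is known from macrophages and activated microglia.

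Values are log2 intensities as the authors deposited them, so 1 unit is a 2-fold step, and differences are MesPC minus MesE11 ± the standard error of limma's fit over 3 and 6 arrays. Precision is limited by there being so few arrays. The fit also takes the arrays of a group as independent, so these errors leave out the likeness within culture sets given next. Culture arrays 1 to 3 resembled each other more than they resembled arrays 4 to 6 (Pearson's r across probe sets of at least 0.997 within a set, and at most 0.987 across). No label separates these sets, so each gene is given by set as well. The signal of GAPDH's 3′ over its 5′ control probe set, a sign of RNA integrity, lay between 0.71 and 0.77 in tissue, between 0.56 and 0.61 in the first culture set and between 0.57 and 0.73 in the second (log2). For beta-actin it lay between 0.51 and 0.80 in tissue, between 0.35 and 0.49 in the first culture set and between 0.54 and 0.67 in the second. The first culture set thus lay below tissue without overlap for both, and the part of this in the results was not tested. The 27 control probe sets for bacterial genes that no rat sample should contain read between 4.80 and 6.68, and that top value serves as the mark of background. Of the 7 ventral midbrain markers measured, 2 were called higher in culture and 4 lower (limma adjusted p under 0.05). Of all genes, 21.9% were called higher and 22.7% lower. The median difference of these markers was −0.43. The random block described below left their counts unchanged, where 13.2% of all genes were higher and 9.11% lower with it. Th (tyrosine hydroxylase) read 11.53 in tissue and 8.45 in culture, and Foxa2 (a floor plate factor) 9.61 and 9.77. En1, En2, Lmx1a and Lmx1b had no probe set of their own.

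Lgals1, S100a11, S100a10 and S100b were higher in every culture array than in every tissue array. Lgals3, S100a4 and S100a6 overlapped between the groups. In the fit over all probe sets, 4 of the 7 genes were called higher (adjusted p under 0.05, Benjamini-Hochberg) and 0 lower, where 21.9% of all genes were called higher and 22.7% lower (44.6% in all, and 42.2% of the 15866 probe sets tested). All 6 culture values lay above all tissue values for these 4 genes and for 21.1% of all genes. Because the list was chosen with this contrast in view, nothing is read from these counts. The median difference of the 7 genes was 0.50, against −0.06 over all 10411 genes.

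**Figure D1:**
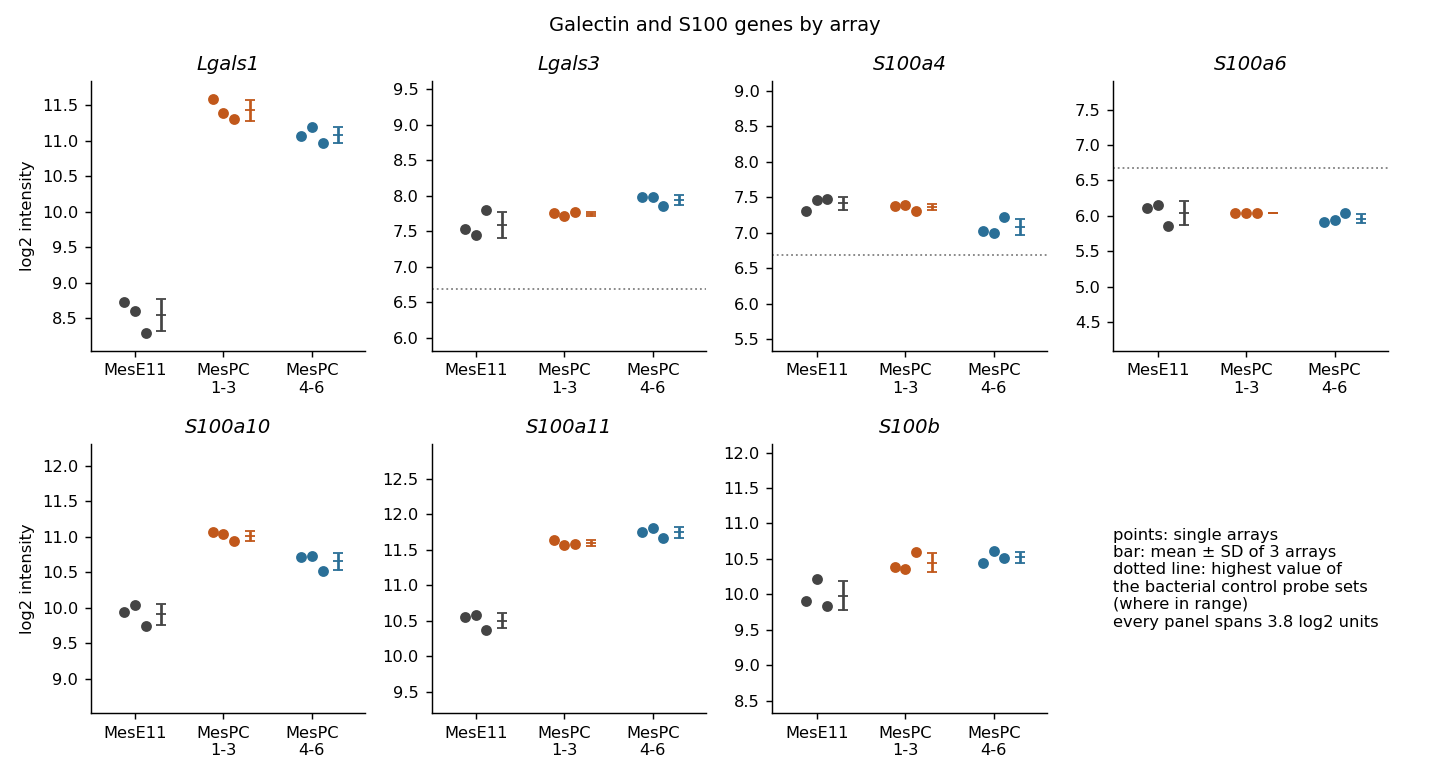
Log2 intensity of the 7 genes on each array, in tissue (MesE11, 3 arrays) and in culture arrays 1 to 3 and 4 to 6; points are arrays, bars the mean ± SD of 3 arrays, the dotted line the highest bacterial control value (6.68), and every panel has an axis of the same length. Lgals1 shows the widest step, from 8.29 to 8.72 in tissue to 10.97 to 11.59 in culture, and S100a6 lies below the dotted line throughout.

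Galectin 1, the product of Lgals1, is a dimer of single-domain lectins that crosslinks glycans of integrins, laminin and fibronectin. Its probe set (1367628_at) read 8.72, 8.61 and 8.29 in MesE11 replicates 1 to 3. The culture values were 11.59, 11.38 and 11.30 in arrays 1 to 3 and 11.06, 11.20 and 10.97 in arrays 4 to 6. All culture arrays were thus far above the tissue arrays, and every array of the first culture set was above every array of the second. The difference was 2.89 with arrays 1 to 3 (7.40-fold) and 2.54 with arrays 4 to 6 (5.81-fold), and 2.71 ± 0.14 over all arrays. Fibroblast markers stood higher in the same arrays: 10 of 10 were called higher, against 21.9% of all genes, by a median of 2.19. Their summed intensity was at least 8.62-fold higher in every culture array than in any tissue array. Their part in the values of Lgals1, and in those of the other genes given below as higher in culture, was not tested. RefSeq lists 1 pseudogene of Lgals1, whose RNA the probe set might also read.

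Galectin 3, the product of Lgals3, joins a lectin domain to a tail through which several molecules can assemble. Its probe set (1386879_at) read 7.53, 7.44 and 7.80 in tissue. In culture it read 7.75, 7.72 and 7.77 in arrays 1 to 3 and 7.99, 7.98 and 7.85 in arrays 4 to 6. The first culture set lay inside the tissue range, whereas the second lay above it in 3 of 3 arrays. The difference was 0.25 ± 0.09 over all arrays, 0.16 with arrays 1 to 3 and 0.35 with arrays 4 to 6, and the tissue values themselves spread with an SD of 0.18. Of 11 microglia and macrophage markers measured, 0 were called higher and 7 lower in culture, against 22.7% of all genes called lower. With a random block for like arrays 5 were lower, against 9.11% of all genes. The summed intensity of these markers was at least 2323 in tissue, at most 1849 in the first culture set and at most 1757 in the second. Of these markers Ptprc, the leukocyte antigen CD45, read under the bacterial control mark on every array. The part of these cells in the Lgals3 values was not tested.

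S100a4, S100a6, S100a10 and S100a11 lie on rat chromosome 2 and S100b on chromosome 20. The RefSeq promoter table (assembly GRCr8) held 4 of the 7 genes: S100a4, S100a6, S100a11 and S100b. The 120 bases before the annotated start are shown for each of these 4. Of them, S100a11 and S100b were higher in culture, S100a4 overlapped between the groups, and S100a6 read at background. Whether these sequences bear on the values was not tested. Capitals mark TATAA on the sense strand, and GGGCGG or TGANTCA on either strand; neighbouring matches may overlap.
S100a4, chr2:178388409-178388528, plus strand: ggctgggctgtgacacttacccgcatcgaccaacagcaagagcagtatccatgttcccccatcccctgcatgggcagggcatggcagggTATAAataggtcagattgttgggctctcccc
S100a6, chr2:178398417-178398536, plus strand: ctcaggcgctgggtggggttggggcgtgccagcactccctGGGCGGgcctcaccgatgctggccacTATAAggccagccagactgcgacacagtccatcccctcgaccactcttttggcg
S100a11, chr2:181875012-181875131, plus strand: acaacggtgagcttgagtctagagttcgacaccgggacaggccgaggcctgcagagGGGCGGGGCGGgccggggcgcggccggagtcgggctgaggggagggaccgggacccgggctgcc
S100b, chr20:12381082-12381201, minus strand: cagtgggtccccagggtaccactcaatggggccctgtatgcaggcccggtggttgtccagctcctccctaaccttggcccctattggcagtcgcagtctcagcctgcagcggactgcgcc
TATAA, the core of the TATA box, stood in the windows of S100a4 and S100a6, beginning 31 and 54 bases before the start, and in 9.23% of the 27457 promoter windows of this length. GGGCGG, the core of the GC box that Sp1 family factors bind, stood in the windows of S100a6 and, as 2 overlapping matches, S100a11, and in 25.3% of all windows. TGANTCA, the element of AP-1 factors, was found in none of the 4 windows and in 2.94% of all. G and C made up 75.0% of the S100a11 window, 66.7% of that of S100a6, 65.0% of that of S100b and 57.5% of that of S100a4. The median over all windows was 54.2%. A match is a string of letters and not a known site of binding.

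S100a10, also called p11, has lost the ability to bind calcium and stays in its open form, in which 2 copies hold 2 of annexin A2 at the inner face of the plasma membrane. Its probe set (1386890_at) read 9.93, 10.04 and 9.75 in tissue. In culture it read 11.07, 11.04 and 10.94 in arrays 1 to 3 and 10.71, 10.73 and 10.51 in arrays 4 to 6. S100a10 was higher in both culture sets and, like Lgals1, stood lower in the second set than in the first without overlap. The fibroblast markers named with Lgals1 were higher in the same arrays. The difference was 0.93 ± 0.13 (1.90-fold) over all arrays, 1.11 with arrays 1 to 3 and 0.74 with arrays 4 to 6.

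S100a11, or calgizzarin, binds annexin A1 when calcium rises. Its probe set (1375170_at) read 10.55, 10.59 and 10.38 in tissue. In culture it read 11.64, 11.56 and 11.58 in arrays 1 to 3 and 11.76, 11.81 and 11.67 in arrays 4 to 6. Here the order of the culture sets was the reverse of that of S100a10 and Lgals1: all of arrays 4 to 6 were above all of arrays 1 to 3. The difference was 1.17 ± 0.07 (2.25-fold) over all arrays, 1.09 with arrays 1 to 3 and 1.24 with arrays 4 to 6. RefSeq lists 5 pseudogenes and 2 further genes named as S100a11 copies, and 1 pseudogene of S100a10. The probe sets of S100a11 and S100a10 might also read RNA of these copies, so their values are uncertain to that extent.

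S100b is secreted by astrocytes and also acts inside them. Its probe set (1386903_at) read 9.91, 10.21 and 9.84 in tissue. In culture it read 10.39, 10.36 and 10.60 in arrays 1 to 3 and 10.45, 10.61 and 10.52 in arrays 4 to 6. Every culture array stood above every tissue array, and the culture sets overlapped. The difference was 0.50 ± 0.09 (1.42-fold), with 0.46 and 0.54 in the first and second culture set. Of the astrocyte markers, 4 of 9 were higher in culture and 0 lower, against 21.9% and 22.7% of all genes. Their summed intensity was at most 12236 in tissue, at least 17607 in the first culture set and between 14854 and 16084 in the second. Gfap, the astrocyte filament, did not pass the test (8.29 in tissue, 8.37 in culture). Of the 6 Schwann cell and neural crest markers measured, 2 were higher (Ngfr and Pmp22) and 2 lower (Foxd3 and Erbb3), against 21.9% and 22.7% of all genes, and Sox10 read 7.43 in tissue and 7.10 in culture. The random block told limma that tissue arrays, culture arrays 1 to 3 and culture arrays 4 to 6 each resemble their own set. With it, 2 of these Schwann cell and neural crest markers were higher and 0 lower, against 13.2% and 9.11% of all genes. The part of either cell type in the S100b values was not tested.

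S100a4 is known as a marker of fibroblasts and other motile mesenchymal cells, where it binds non-muscle myosin. Its probe set (1367846_at) read 7.31, 7.46 and 7.47 in tissue, 7.38, 7.40 and 7.31 in culture arrays 1 to 3, and 7.03, 7.003 and 7.22 in arrays 4 to 6. The first culture set lay among the tissue values and the second below all of them. The difference was −0.19 ± 0.10 over all arrays, −0.05 with arrays 1 to 3 and −0.33 with arrays 4 to 6. Of the fibroblast markers, 10 of 10 were called higher, against 21.9% of all genes. Their summed intensity lay between 2489 and 2970 in tissue arrays and between 25593 and 28957 in culture arrays. The part of fibroblasts in the S100a4 values was not tested.

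S100a6, or calcyclin, is a further S100 protein known from fibroblasts and astrocytes. Its probe set (1367661_at) read 6.12, 6.15 and 5.85 in tissue, and the culture arrays lay between 5.91 and 6.04. All 9 arrays thus read below the highest bacterial control, so no level of S100a6 can be given and no fold is stated. The difference of −0.04 ± 0.07 is thus one between readings at background. With the other 6 genes, every array stood above that mark.

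**Figure D2:**
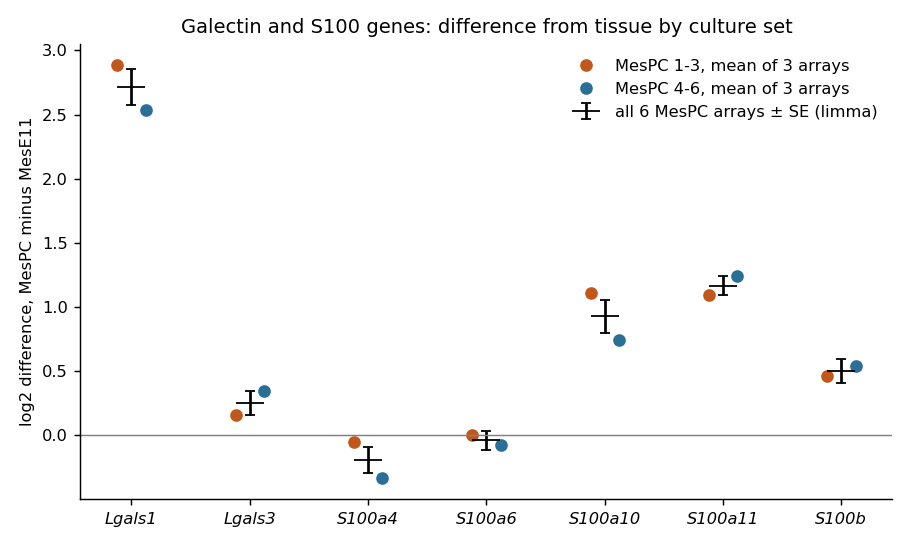
Log2 difference from the tissue mean of culture arrays 1 to 3 and of culture arrays 4 to 6 (points, means of 3 arrays), with the difference over all 6 culture arrays ± SE (black). Lgals1 and S100a10 lie higher in arrays 1 to 3, Lgals3 and S100a11 higher in arrays 4 to 6, and S100a4 falls below the line mainly in arrays 4 to 6.

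Between the culture sets, 5 of the 7 genes did not overlap, where 48.4% of all genes did not. Lgals3 and S100a11 were higher in arrays 4 to 6 (22.4% of all genes were so placed), and Lgals1, S100a4 and S100a10 lower (26.0%). The differences, arrays 4 to 6 minus 1 to 3, ran from −0.37 for S100a10 to 0.19 for Lgals3, with −0.35 for Lgals1, −0.28 for S100a4, 0.15 for S100a11 and 0.07 for S100b. That of S100b changed sign under quantile normalization (−0.0118). None of these differences between the sets was tested, since no label parts the sets. Neuron markers parted the sets more widely: all 8 measured were higher in arrays 4 to 6, with a median difference of 1.15.

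Of the 16 remaining galectin and S100 genes with a probe set of their own, 2 were called higher and 2 lower, that is 12.5% each, below the 21.9% and 22.7% of all genes, and their median difference was −0.08 against −0.06. For 8 of the 16 (Lgals2, Lgals4, Grifin, S100a7l2, S100a8, S100a9, S100a14 and S100g) every array read at or under the bacterial control mark. Among them are S100a8 and S100a9, the subunits of calprotectin that neutrophils and monocytes carry. With the random block 1 gene, S100a16, was higher and 0 lower, against 13.2% and 9.11% of all genes.

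S100a16, which is expressed in many tissues, rose from 9.60 ± 0.19 (SD, n = 3) in tissue to 10.25 ± 0.27 (SD, n = 6) in culture, by 0.65 ± 0.15 (limma adjusted p = 0.00744), and was higher in 6 of 6 culture arrays. Arrays 1 to 3 lay between 10.47 and 10.53, above the 9.93 to 10.11 of arrays 4 to 6. Of the 4 called genes it alone kept its call in every alternative tried (highest limma adjusted p = 0.0439). S100a13, which takes part in the release of FGF1 from cells, rose by 0.41 ± 0.14 (limma adjusted p = 0.0393). Its values of 8.54 to 8.70 in arrays 1 to 3 were above the tissue's 7.89 to 8.13, while the 8.08 to 8.27 of arrays 4 to 6 overlapped with them. The call of S100a13 ended without any 1 tissue array or any 1 of culture arrays 1 to 3, with centring on all probe sets, and with arrays 4 to 6 alone or the random block (limma adjusted p up to 0.145).

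Lgals9, a galectin with a pair of lectin domains, fell by 0.31 ± 0.08 (limma adjusted p = 0.0127), from 7.21 to 6.90, but did not pass without MesE11 replicate 1 or 3 (adjusted p up to 0.0624) or with the random block (0.141). S100a9 was called lower by 0.19 ± 0.06 (limma adjusted p = 0.0424) with all values between 5.51 and 5.89, inside the range of the bacterial controls, and lost its call without any 1 of 6 arrays (MesE11 replicates 2 and 3 and MesPC replicates 1, 2, 4 and 5). It was also lost under quantile normalization, with arrays 1 to 3 alone and with the random or the replicate block (limma adjusted p up to 0.275). Lgals8, also a galectin with paired lectin domains, gave unlike answers: its brighter probe set differed by 0.16 ± 0.06 (limma adjusted p = 0.0676), and the dimmer one rose by 0.63 ± 0.07 (adjusted p = 9.8e-05). S100a1, the S100 protein of heart muscle and neurons, differed by 0.25 ± 0.10 and did not pass (limma adjusted p = 0.0758).

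In the RefSeq gene order, 11 S100 genes of chromosome 2 stand next to each other without another coding gene between them, from S100a1 through S100a13, S100a14, S100a16, S100a3, S100a4, S100a5, S100a6, S100a7a and S100a8 to S100a9. Of the 9 measured, 2 were called higher (S100a13 and S100a16) and 1 lower (S100a9), against 21.9% and 22.7% of all genes, and with the random block S100a16 alone was called. S100a4, which overlapped between the groups, and S100a6, which read at background, stand in this row. S100a11 and S100a10 are next to each other 55 coding genes beyond S100vp, and both were higher. Neighbours were not alike throughout: S100a14, between S100a13 and S100a16, read 5.87 in tissue and 5.81 in culture, under the bacterial control mark.

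**Figure D3:**
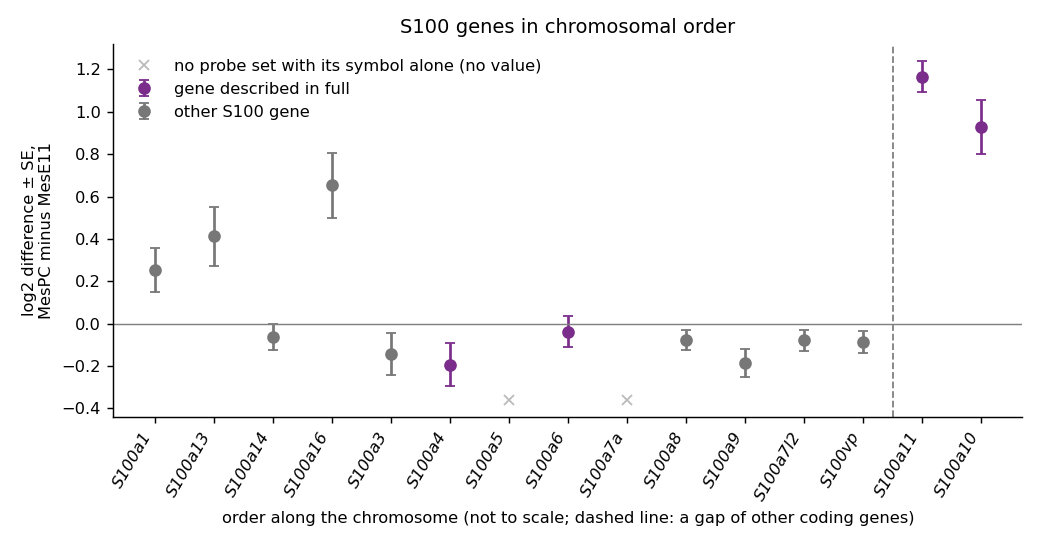
Log2 difference ± SE (limma, 6 culture against 3 tissue arrays) of the S100 genes in their order along the chromosome, not to scale; crosses mark genes without a probe set of their own, which have no value. S100a1 (0.25, not called), S100a13 and S100a16 (0.41 and 0.65) and the neighbours S100a11 and S100a10 (1.17 and 0.93) lie above 0. S100a14 and the stretch from S100a3 to S100vp lie at or a little below 0.

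Partners and targets of S100 proteins were read from a list of textbook names. Of 23 measured, 7 were called higher in culture (30.4%, against 21.9% of all genes) and 2 lower (8.70%, against 22.7%), and the median difference was −0.00 against −0.06. With the random block 7 were higher and 0 lower, against 13.2% and 9.11% of all genes. The genes that rose were led by annexins, calcium-dependent membrane binders to which S100 dimers attach: Anxa11 by 2.30 ± 0.14, Anxa1 by 2.11 ± 0.10 and Anxa2 by 1.40 ± 0.14 (limma adjusted p = 1.8e-06, 4.8e-07 and 3.8e-05). Plat, tissue plasminogen activator, whose action on plasminogen the S100a10 and annexin A2 complex promotes at the cell surface, rose by 2.09 ± 0.09 (limma adjusted p = 2.3e-07). Anxa6, Myh9 and Ppp5c made up the 7, and are named here after their values were seen. Myh9, the non-muscle myosin heavy chain that S100a4 binds, rose by 0.59 ± 0.12.

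The 2 that fell did so by little. Htr1b, a serotonin receptor that S100a10 binds, fell by 0.24 ± 0.07 (limma adjusted p = 0.0166), and Plg, plasminogen, by 0.23 ± 0.08 (adjusted p = 0.0344). The call of Htr1b ended without MesE11 replicate 2 or 3, under quantile normalization and with the random or the replicate block (limma adjusted p up to 0.163). That of Plg ended without any 1 of 7 arrays (all but MesE11 replicate 1 and MesPC replicate 6), under quantile normalization, with arrays 4 to 6 alone and with the random block (limma adjusted p up to 0.257). Receptors through which S100 proteins signal outside the cell were not called: Ager, the receptor for advanced glycation end products, differed by 0.03 ± 0.07, and Tlr4 by −0.09 ± 0.07 at a level under the bacterial control mark. Mapt and Gap43, neuronal proteins that S100b binds, differed by −1.21 ± 0.48 and −0.76 ± 0.33 and did not pass (limma adjusted p = 0.0651 and 0.0868). Mapt was called lower with either culture set alone, with the replicate block and without MesPC replicate 5 or 6, and Gap43 with arrays 1 to 3 alone and with the replicate block (lowest limma adjusted p 2.1e-08 and 4.4e-07). Of 8 neuron markers, 0 were higher and 5 lower, against 21.9% and 22.7% of all genes. With the random block 4 were lower, against 9.11% of all genes. The median difference of the neuron markers was −1.01, and their part in the values of Mapt and Gap43 was not tested. Ager, Tlr4, Mapt and Gap43 are named after their values were seen. Mapt and Gap43 parted by culture set, with Mapt between 11.16 and 11.35 in the first and between 12.85 and 13.12 in the second, both below the tissue's lowest value of 13.29.

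Set beside its annexin, S100a10 had the same order of array sets as Anxa2. Anxa2 read 9.89, 10.16 and 9.63 in tissue, 11.49, 11.52 and 11.37 in culture arrays 1 to 3, and 11.22, 11.18 and 11.002 in arrays 4 to 6. Both genes were highest in arrays 1 to 3, intermediate in arrays 4 to 6 and lowest in tissue, without overlap between these. S100a11 and Anxa1 were both higher in culture but parted in the order of the sets: the lowest Anxa1 value of arrays 1 to 3, 10.36, was above the highest of arrays 4 to 6, 10.33, while S100a11 was higher in arrays 4 to 6.

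**Figure D4:**
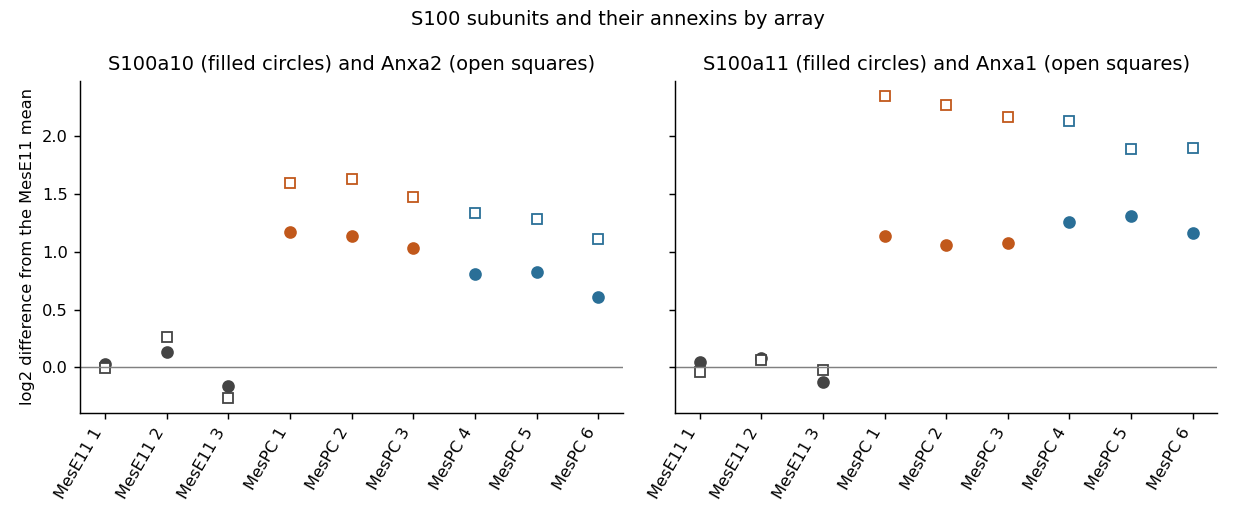
Log2 difference of each array from the tissue mean of the same gene, for S100a10 with Anxa2 (left) and S100a11 with Anxa1 (right); the arrays of a group have no order among themselves. S100a10 and Anxa2 both stand lower in culture arrays 4 to 6 than in 1 to 3, whereas S100a11 stands higher there and Anxa1 lower.

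Galectin ligands and the enzymes that build or mask them gave 6 of 21 higher (28.6%, against 21.9%) and 2 lower (9.52%, against 22.7%). Their median difference was −0.00. With the random block 5 were higher and 1 lower, against 13.2% and 9.11% of all genes. Fn1, the matrix protein fibronectin, rose by 1.81 ± 0.17, Itgb1, the integrin beta 1 chain, by 1.35 ± 0.07, Lamp2 by 1.21 ± 0.08 and Lamp1 by 0.75 ± 0.07 (highest limma adjusted p of the 4, 2.6e-05). As with the annexins, these rises stand beside 10 of 10 fibroblast markers higher in the same arrays, against 21.9% of all genes. With the random block 9 of these markers were higher, against 13.2% of all genes. The part of fibroblasts in these rises was not tested. Lamp1 and Lamp2 are heavily glycosylated proteins of the lysosome membrane, and the dimmer probe sets of Lamp1, which read under the bacterial control mark, did not pass. Mgat1, which starts the branching of N-glycans, rose by 0.36 ± 0.07 (adjusted p = 0.00232), and Pdcd6ip, a galectin 3 partner in membrane sorting, by 0.31 ± 0.10 (limma adjusted p = 0.0276). The call of Pdcd6ip ended without MesE11 replicate 1 or 2, under quantile normalization, with culture arrays 4 to 6 alone and with the random block (limma adjusted p up to 0.143). Mgat1 and Pdcd6ip were named after their values were seen.

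Thy1, a glycoprotein of neurons and some fibroblasts that galectin 1 binds, fell by 0.73 ± 0.11 (limma adjusted p = 6.95e-04), and its dimmer probe set by 0.91 ± 0.07. St6gal1, the sialyltransferase whose product caps galactose and so blocks galectin 1 binding, fell by 0.36 ± 0.07 (adjusted p = 0.00384), but not past the threshold with the random block (0.0704). Its dimmer probe set did not pass (−0.11 ± 0.11). Lgals3bp, a secreted glycoprotein ligand of galectin 3, read at or under the bacterial control mark on all arrays, and Cd44, a hyaluronan receptor, differed by −0.00 ± 0.09; both are named after their values were seen.

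The genes most like each member over the 9 arrays were sought among 1485 genes whose values ranged over at least 1 log2 unit. Pearson's r is given as a description, since the 9 arrays fall into 3 sets and any gene with the same steps between sets scores high. Lgals1 was most like Lama5 (a laminin chain), Cd151 (a tetraspanin that binds integrins) and Colec12, each at 0.998. S100a10 was most like Slc39a1 (a zinc importer, 0.998), Cyfip1 (0.997) and Nes (the filament protein nestin, 0.996), whose highest values were 10.73 in tissue, 11.81 in the first culture set and 11.44 in the second. S100a11 was most like Slc15a2 (a peptide transporter, 0.997), Igf2 (0.996) and Tmem47 (0.996), which like S100a11 stood higher in arrays 4 to 6 or overlapped between the sets.

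S100b was most like Nkain4 (0.972), C19h1orf198 (0.965) and Vstm4 (0.957). The members with small ranges had weaker matches: Lgals3 reached 0.935 with Vars2, 0.904 with Acer3 and 0.895 with Il3ra, and S100a4 reached 0.892 with Cd48, 0.864 with Bcas1 and 0.845 with Mustn1. S100a6 reached 0.655 with Lmcd1, 0.629 with C1qb and 0.581 with Nrarp, which for a gene at background is not read further.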

How the data were processed

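RNA of 9 samples, 3 of tissue and 6 of cultures, was hybridised to Affymetrix rat arrays. Per the submitters' processing notes, the authors made the deposited log2 intensities with RMA, which corrects background, normalizes arrays to each other and summarises probe sets; for its version, not given in the sources used here, no number is stated. It makes every difference relative to the other probe sets of an array. Of 15923 probe sets, 57 controls were left out. Symbols came from the array annotation (12783 probe sets with 1 symbol, 312 with several) and were checked against RefSeq, where 12754 matched and 0 changed. The brightest probe set by the mean of 9 arrays stood for a gene.

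limma 3.58.1 in R 4.3.3 (lmFit, eBayes) compared culture with tissue over 15866 probe sets, two-sided, with Benjamini-Hochberg adjustment and a threshold of 0.05. The fit was tested on simulated data of 15866 probe sets. It found 65.7% of planted changes of 0.5 log2 units, 95.5% of 1 unit and 98.5% of 2 units, with 19 false calls. The simulated arrays varied independently of each other, whereas the real culture arrays fall into sets. These rates are therefore not error rates for the real arrays. Deviations of same-numbered tissue and culture arrays from their group means correlated at 0.017, 0.0072 and −0.086. The culture mean spanned both culture sets, so the difference between the sets enters these values. They therefore cannot decide whether the arrays pair. Numbers were not used as pairs in the main fit because no label links a culture array to an embryo group.

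The genes and lists were chosen with earlier results of these data known. Genes named were the 7 described, the measured members of both families, and the 3 genes most like each of the 7. From the partner and ligand lists, up to 4 called genes a direction with the largest difference were named. Other genes, among them single cell type markers such as Th, Foxa2 and Gfap, lie outside this rule. Some of them are said to be named after their values were seen, and the rest should be read the same way. Marker lists whose counts are not in the results gave 1 higher and 1 lower of 7 (oligodendrocyte) and 0 and 3 of 4 (endothelium). The erythroid list gave 0 and 5 of 5, and skeletal muscle 0 and 3 of 5. Of all genes, 21.9% were called higher and 22.7% lower. With the random block for like arrays, erythroid fell to 4 lower and skeletal muscle to 0 lower, and the others kept their counts. Of all genes, 13.2% were higher and 9.11% lower with that block. Alternatives were quantile normalization, centring, a filter on dim probe sets, probe set means, trended robust moderation, blocks, either culture set alone and leaving out each array. Plots were drawn with matplotlib 3.10.9.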

Additional observations from a re-analysis of the deposited data

Results flagged for a closer look

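Of 67 genes checked, 3 had a single culture array that stood far from the other 5, and chance alone marks about 1 group in 20. Lgals2 read 6.26 in MesPC replicate 4, its lowest, with the others between 6.43 and 6.50. Ager read 8.76 in MesPC replicate 6, its highest, with the others between 8.53 and 8.604. Mgat5 read 6.19 in MesPC replicate 5, its lowest, with the others between 6.37 and 6.42. Lgals2 and Mgat5 lay under the highest bacterial control value on all arrays. None of the 7 galectin and S100 genes described in full was marked.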

How the results depend on the processing

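Over the alternatives run, no called difference of the 7 genes changed sign, and signs of other genes were not checked throughout. Among the S100 partners, Asic1 was not called over all arrays. Its brightest probe set was called lower with culture arrays 1 to 3 alone (−0.41) and higher with arrays 4 to 6 alone (0.41). Asic1 is named after its values were seen. The differences of Lgals1, Lgals3, S100a4, S100a10, S100a11 and S100b between culture and tissue kept their sign and moved by less than the array spread wherever they could be computed (leaving out the dimmest 40% gives no value for Lgals3, S100a4 and S100a6). S100a6, at background, changed sign between alternatives and was 0.0687 under quantile normalization. Without 1 array at a time they ranged from 2.59 to 2.80 for Lgals1, 0.85 to 0.99 for S100a10, 1.10 to 1.21 for S100a11 and 0.43 to 0.61 for S100b. Between the culture sets, centring on ribosomal protein probe sets adds 0.10 to arrays 4 to 6 relative to 1 to 3. It gave 0.29 for Lgals3, −0.18 for S100a4, 0.0242 for S100a6, −0.26 for S100a10 and 0.25 for S100a11. Quantile normalization gave −0.0132 for S100a6, 0.0901 for S100a11 and −0.0118 for S100b, whose sign thereby changed.

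Counts of small changes moved most, and the cause was not tested. Of all probe sets tested, 6693 were called, 46.7% of them higher in culture; the random block left 3227 (58.2% higher). The share called higher was 33.5% with ribosomal centring, 38.1% with centring on all probe sets and 57.9% without the dimmest 40%. Of the 15866 probe sets, 3565 were called lower in the main fit, 4542 with centring on all and 5052 with ribosomal centring. Arrays 1 to 3 alone gave 4149 lower, arrays 4 to 6 alone 4335, quantile normalization 3378 and the random block 1348. With probe set means 3194 of 13494 were lower, and without the dimmest 40% 1936 of 9520. The list counts that follow stand beside these and are not read as results about the lists. Of the other galectin and S100 genes (2 higher, 2 lower), 1 was higher with centring on all probe sets, with the random block and with culture arrays 4 to 6 alone, and 4 with arrays 1 to 3 alone; 4 were lower with centring on all and with arrays 4 to 6 alone, 5 with ribosomal centring, and 0 without the dimmest 40% and with the random block. Without 1 array, 1 to 3 were higher and 0 to 2 lower, where 4725 to 6557 of all probe sets were called. Of all probe sets, 3128 were higher in the main fit, 2799 with centring on all and 1879 with the random block. Arrays 1 to 3 alone gave 3730 higher and arrays 4 to 6 alone 3337. Of the S100 partners (2 lower), 1 was lower under quantile normalization, 0 without the dimmest 40% and with the random block, 4 with probe set means and with arrays 4 to 6 alone, 5 with arrays 1 to 3 alone, and 0 to 3 without 1 array. Of the galectin ligands (2 lower), 4 were lower under quantile normalization and with either culture set alone, and 1 without the dimmest 40% and with the random block. Leaving out the dimmest 40% dropped the probe sets of Lgals9, S100a9, Htr1b, Plg and Thy1 before the fit. The lower counts in that setting thus fell without those genes being tested, unlike with the random block.

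As a block, the replicate number gives culture arrays 4 to 6 numbers of their own, so they do not inform the difference. With this block 4 S100 partners and 4 galectin ligands were lower, and 3917 of all 15866 probe sets. The labels do not say whether the replicate numbers pair the arrays. Dimness limits S100a6 and 8 of the 16 other family genes, which read at or under the bacterial controls.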

Other observations

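A probe set that the annotation assigns to both Lgals9 and Lgals5 read 8.47 in tissue and 8.18 in culture and fell by 0.30 ± 0.08 (limma adjusted p = 0.0150), so which of these galectins it reads is not settled. S100vp, a further S100 gene, read 5.35 and 5.27, within the range of the bacterial controls, and did not pass (limma adjusted p = 0.205).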
